A study of Mus musculus with 2 samples.

Results

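Of the 9165 regions called for FLAG-tagged Foxf2 in the embryonic mouse palate, 1364 (14.9%, 95% interval 14.2 to 15.6) had the centre of at least 1 other region within 10 kb on the same chromosome. These peaks were chosen by their measured positions, so their number, spacing and grouping are a description and carry no test. Chained from neighbour to neighbour they formed 629 clusters, and the other 7801 peaks, with no centre that near, are called single peaks. The data were 1 ChIP-seq library and 1 input library of palatal shelves from embryos at E13.5, mid-gestation, for which 50 pairs of shelves were dissected. Both libraries came from Foxf2FLAG/FLAG embryos, which are homozygous for a 3xFLAG epitope placed on the endogenous Foxf2 protein by CRISPR/Cas9 editing. The ChIP library was made with an anti-FLAG antibody and the input library with none, and a library from untagged embryos was not analysed here. The ChIP library held 26849463 tags, the peak values put the input at about 19231525 tags, and neither had a replicate, so each comparison between peaks is within these libraries.

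Foxf2 belongs to the forkhead family of transcription factors. It acts in palatal mesenchyme downstream of hedgehog signalling, and its loss in mice causes cleft palate. Forkhead proteins bind DNA as monomers at AT-rich sites of the form RTAAAYA, in which R is A or G and Y is C or T. Genes that pattern the embryo are often controlled by several separate enhancers, some beside the promoter and some far from it, and a group of neighbouring peaks of 1 factor is one form in which such regions appear in ChIP-seq. Palatal shelves also hold epithelium, vessels and nerves, and tags on genomic DNA do not tell which cells they came from.

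The sequences of 8 clusters show the kinds of grouping described here. They were read from the mm9 assembly (NCBIM37), 5′ to 3′ on the strand named, as 61 bases around the RTAAAYA match nearest to the peak centre, with the match in capitals, and were picked after their values were seen. The first set comes from clusters of distal peaks in which each peak held a match. The 3 peaks upstream of Lmo4, a LIM-only transcriptional cofactor, each held ATAAACA and had 29, 70 and 249 ChIP tags. The pair at Hes1, a repressor that acts in Notch signalling, had 309 and 97 tags, and the pair in an intron of Tgfbr3, the TGF-beta co-receptor betaglycan, had GTAAACA in both peaks, with 87 and 181 tags. The pair in an intron of Ptch1, the hedgehog receptor, had 67 and 148 tags.
Lmo4 peak 1, chr3:143884004-143884064, plus strand: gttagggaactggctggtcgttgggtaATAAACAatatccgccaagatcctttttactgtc
Lmo4 peak 2, chr3:143886117-143886177, minus strand: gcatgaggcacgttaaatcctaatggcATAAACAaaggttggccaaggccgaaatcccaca
Lmo4 peak 3, chr3:143890706-143890766, plus strand: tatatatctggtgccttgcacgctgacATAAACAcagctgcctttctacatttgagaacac
Hes1 peak 1, chr16:30096693-30096753, plus strand: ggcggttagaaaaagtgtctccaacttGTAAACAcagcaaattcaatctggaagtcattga
Hes1 peak 2, chr16:30103421-30103481, plus strand: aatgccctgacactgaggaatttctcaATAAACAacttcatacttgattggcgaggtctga
Tgfbr3 peak 1, chr5:107617678-107617738, minus strand: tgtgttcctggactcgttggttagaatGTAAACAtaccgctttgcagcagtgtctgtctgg
Tgfbr3 peak 2, chr5:107625199-107625259, minus strand: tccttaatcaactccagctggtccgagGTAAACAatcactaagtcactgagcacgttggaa
Ptch1 peak 1, chr13:63624147-63624207, plus strand: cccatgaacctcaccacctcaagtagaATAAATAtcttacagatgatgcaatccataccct
Ptch1 peak 2, chr13:63626602-63626662, minus strand: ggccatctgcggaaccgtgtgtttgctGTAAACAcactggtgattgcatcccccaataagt

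The second set shows promoter-to-distal pairs, 3 in which the forkhead match was in the distal peak alone and 1 in which both peaks held it. At Hhip, Fgf18 and Gdf6 the promoter peak held no RTAAAYA, so the 61 bases at its centre are shown with each CG dinucleotide in capitals, while the neighbour held ATAAACA, again in capitals. Hhip binds and restrains hedgehog ligands, and its promoter and intronic peaks had 18 and 55 ChIP tags. Fgf18, a fibroblast growth factor, had 30 tags at the promoter and 18 at the upstream peak, and Gdf6, a ligand of the BMP family, had 30 and 18 tags. In the last pair, at Vgll4, a cofactor of TEAD proteins, both the promoter peak (85 tags) and the intronic peak (247 tags) held a forkhead match.
Hhip promoter, chr8:82581945-82582005, plus strand: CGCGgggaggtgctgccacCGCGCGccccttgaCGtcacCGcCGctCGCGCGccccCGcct
Hhip intron, chr8:82579009-82579069, minus strand: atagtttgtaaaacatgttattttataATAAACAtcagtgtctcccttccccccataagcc
Fgf18 promoter, chr11:33047475-33047535, plus strand: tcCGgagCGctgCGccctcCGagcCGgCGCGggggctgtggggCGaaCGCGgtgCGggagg
Fgf18 upstream, chr11:33049119-33049179, minus strand: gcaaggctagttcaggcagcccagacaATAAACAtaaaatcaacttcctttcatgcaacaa
Gdf6 promoter, chr4:9771368-9771428, plus strand: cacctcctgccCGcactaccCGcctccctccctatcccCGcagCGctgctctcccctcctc
Gdf6 intron, chr4:9774856-9774916, plus strand: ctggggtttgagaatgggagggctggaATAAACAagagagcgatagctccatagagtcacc
Vgll4 promoter, chr6:114872232-114872292, minus strand: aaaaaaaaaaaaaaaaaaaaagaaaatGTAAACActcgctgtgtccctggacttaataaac
Vgll4 intron, chr6:114869651-114869711, minus strand: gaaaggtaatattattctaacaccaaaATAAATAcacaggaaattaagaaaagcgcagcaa

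Most clusters were pairs. There were 551 clusters of 2 peaks, 58 of 3, 15 of 4, 3 of 5, 1 of 6 and 1 of 7, so 78 of 629 (12.4%, 10.1 to 15.2) held 3 or more. A cluster spanned a median of 5558 bp, from 1503 to 30139 bp. The 735 neighbouring pairs inside clusters had centres a median of 4349 bp apart (quartiles 2356 to 6980). Pairs were most frequent at the shortest distances, with 143 pairs between 1 and 2 kb, 102 between 2 and 3 kb, 72 between 4 and 5 kb and 56 between 9 and 10 kb. Most of the fall lay below 5 kb, and the number showed no step at the limit. It was 52 pairs per kb between 10 and 12 kb, 58.5 between 12 and 14 kb and 45.5 between 18 and 20 kb.

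The closest pairs stood near the smallest spacing that the peak caller allowed, 1000 bp. They were a promoter-to-distal pair at Lonrf2 (centres 1003 bp apart, 16 and 60 ChIP tags), 2 promoter peaks at Tgif2 (1010 bp, 33 and 25 tags) and 2 intronic peaks of Prickle1 (1021 bp, 16 and 88 tags). The pairs just inside the limit were those at Errfi1 (9969.5 bp), Arhgef4 (9955 bp) and 6030469F06Rik (9951.5 bp). Just outside it were pairs at Ttc39b (10011 bp), Fat4 (10024 bp) and Foxf1a (10048 bp), the last being 46 and 81 tags near the start of the closest relative of Foxf2. The file header lists a required 10-fold excess over the surrounding 10000 bp, which would bear on dense groups, but it also lists 0 peaks removed by it. Of the clustered peaks, 231 (16.9%, 15.04 to 19.02) had a tag density under 10 times that of their neighbours' tags spread over the surrounding 10 kb.

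**Figure D1:**
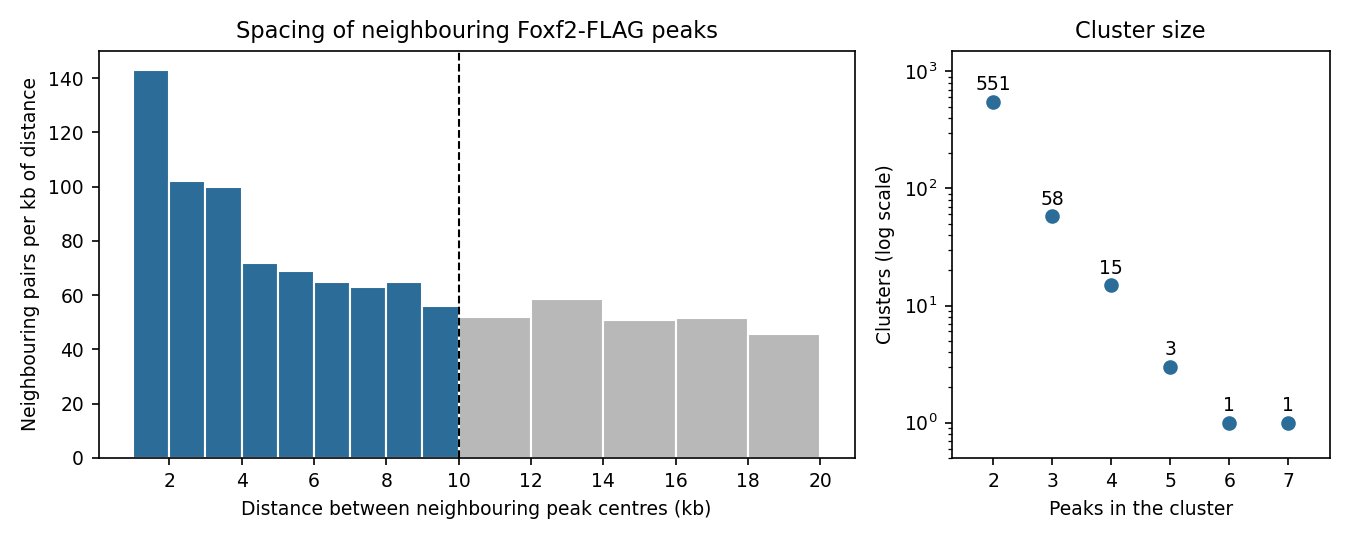
Left, neighbouring pairs of Foxf2-FLAG peaks per kb of distance between their centres, in blue up to the limit of 10 kb (dashed line) and in grey from 10 to 20 kb; right, the number of clusters (log scale) by the number of peaks they held. Pairs fell from 143 per kb at 1 to 2 kb to 56 at 9 to 10 kb, and clusters fell from 551 with 2 peaks to 1 with 7.

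Clustered and single peaks had similar tag numbers, with slightly higher values in clustered peaks. The median clustered peak had 31.5 ChIP tags (quartiles 20 to 56) and 2 input tags, and the median single peak 30 ChIP tags (19 to 50) and 2 input tags. The median fold over input was 12.89 in both, the median width was 500 bp in both, and the caller's score was 26 against 25. Peaks of 87 or more tags, of which there were 930 in all, made up 11.6% (9.99 to 13.4) of clustered and 9.90% (9.25 to 10.6) of single peaks, and the intervals overlap. For scores of 58 or more the shares were 12.1% (10.5 to 13.9) and 9.68% (9.04 to 10.4), and these intervals do not overlap. All intervals on shares are Wilson 95% intervals and cover counting error only, and since neighbours share a locus they are too narrow as intervals over loci.

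Neighbours were compared by their ChIP tags. The stronger peak of a pair had a median of 1.73 times the tags of the weaker (quartiles 1.26 to 2.76), the ratio was under 1.5 in 281 of 735 pairs, and it was 5 or more in 60. For pairs 10 to 20 kb apart the median ratio was 1.89 (1.35 to 3.0). Across pairs, which share the 2 libraries, the tags of the left and right neighbour had a Spearman rho of 0.12 (n = 735), against 0.044 over the 517 pairs 10 to 20 kb apart.

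Most clustered peaks were intergenic or intronic. Intergenic sequence held 544 clustered peaks, 39.9% (37.3 to 42.5) against 41.4% of single peaks (40.4 to 42.5). Promoters, counted as centres within 1 kb of a protein-coding start, held 279 clustered peaks (20.5%, 18.4 to 22.7), against 25.7% of all peaks and 26.6% of single peaks (25.7 to 27.6). Introns held 497 clustered peaks, 36.4% (33.9 to 39.03) against 29.4% of single peaks (28.4 to 30.4). The zone from 1 to 10 kb from a start held 336, 24.6% (22.4 to 27.0) against 11.2% (10.5 to 11.9). Fewer lay farther than 100 kb from any start, 20.5% against 25.1% (24.2 to 26.1) of single peaks. Members were chosen by position, so these shares are a description. By chromosome, clustered peaks were 21.7% (17.8 to 26.3) of the peaks on chromosome 18, the highest share. On the X chromosome they were 8.72% (5.51 to 13.52), the lowest of the chromosomes with over 1 peak. The interval of chromosome 14, at 9.32% (6.71 to 12.8), overlaps that of the X. The X had 1.17 peaks per Mb and chromosome 18 had 3.95, and the part of peak density in these shares was not tested.

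The forkhead match was as frequent in clustered peaks as in all peaks, but its place differed. RTAAAYA was searched on both strands in the central 200 bp, and a match in a peak means that window unless another is named. A match was held by 557 of 1364 clustered peaks (40.8%, 38.3 to 43.5), against 40.8% of all peaks. Flank windows of the same length were taken 2000 bp toward lower chromosome coordinates, whatever the strand of the gene. In these windows 15.98% (14.1 to 18.0) of clustered peaks held a match. Among distal peaks, more than 1 kb from a start, 517 of 1085 clustered peaks had a match (47.6%, 44.7 to 50.6), against 51.5% of all distal peaks and 52.3% (51.0 to 53.6) of single ones. The flank windows of these distal peaks held it in 16.4% and 18.7%, and the median GC content of the central 200 bp was 44% and 42.5%. Among promoter peaks the order was the other way, with 40 of 279 clustered peaks (14.3%, 10.7 to 18.9), against 9.89% of all promoter peaks and 9.29% (8.11 to 10.6) of single ones. The clustered promoter peaks had it as often as their own flank windows (14.3%), while single promoter peaks had it less often than theirs (18.3%).

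Distance and strength accompanied the match in clustered distal peaks. The share with RTAAAYA was 42.3% (37.1 to 47.6) at 1 to 10 kb from a start, 47.7% (43.2 to 52.2) at 10 to 100 kb and 54.1% (48.3 to 59.9) beyond 100 kb. For single peaks the shares were 44.7%, 52.4% and 55.5% in the same zones, so the intervals of clustered and single peaks overlap in each. Among peaks of 51 or more tags, 65.0% of clustered and 66.2% of single distal peaks held the match. Among peaks of 19 or fewer tags the shares were 31.7% (26.6 to 37.3) and 40.1% (37.7 to 42.5), and these intervals do not overlap (the plot of forkhead matches by class). The strongest peak of a cluster, where distal, held the match in 54.2% of 474 cases (49.7 to 58.7), and the other distal members in 42.6% of 611 (38.7 to 46.5).

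**Figure D2:**
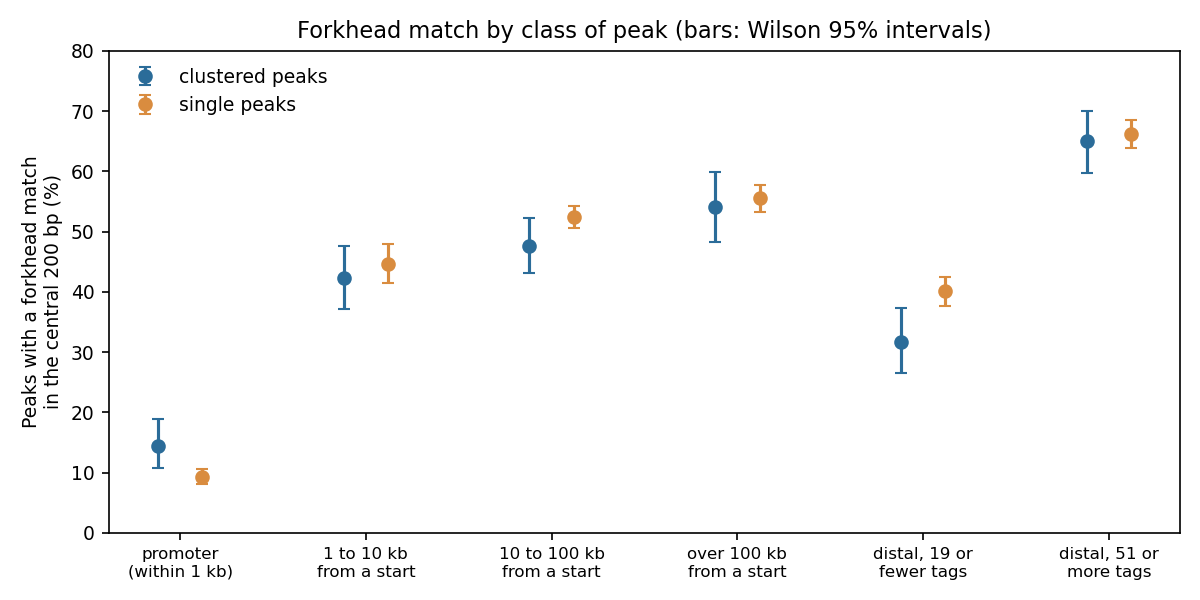
Share of peaks with RTAAAYA in the central 200 bp (%), for clustered (blue) and single (orange) peaks by distance from a protein-coding start and by tag number; points are shares and bars are Wilson 95% intervals. Clustered promoter peaks sit at 14.3% against 9.29%, clustered distal peaks of 19 or fewer tags at 31.7% against 40.1%, and the intervals of the other distance and tag classes overlap.

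Of 21 patterns searched in the same way, 5 others are given here, picked with their values in view. The SOX pattern AACAAWG, in which W is A or T, can overlap the forkhead match. It was in 10.5% (8.82 to 12.5) of clustered and 13.49% (12.6 to 14.4) of single distal peaks. In the flank windows of these distal peaks it was in 10.4% and 8.79%. The share of all peaks, 10.7%, includes promoter peaks, of which 5.38% of clustered and 4.04% of single ones had it. The AP-2 pattern GCCNNNGGC was in 26.2% (21.4 to 31.6) of clustered and 32.5% (30.5 to 34.5) of single promoter peaks. The share of all peaks, 11.8%, includes distal peaks, of which 5.44% of clustered and 4.86% of single ones had it. The ETS pattern CCGGAAGT was in 0 of 1364 clustered peaks, which allows a share of up to 0.22% (3 counts; the Wilson upper limit is 0.28%), and in 49 of 7801 single peaks (0.63%, 0.48 to 0.83). Of those 49 single peaks 37 were promoters, a share of 1.78% (1.29 to 2.44) of single promoters. For the 0 of 279 clustered promoters the Wilson upper limit is 1.36%, so the intervals overlap and a difference among promoters was not detectable at this number. The TEAD pattern GGAATG was in 11.4% (9.86 to 13.2) and 9.72% (9.08 to 10.4), and the homeobox pattern TAATTA in 6.60% (5.40 to 8.04) and 5.55% (5.06 to 6.08), of clustered and single peaks, against 9.97% and 5.71% of all. Intervals overlap for AP-2, TEAD and homeobox; no test was run over the 21 patterns.

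Of the 629 clusters, 415 (66.0%, 62.2 to 69.6) held a forkhead match in at least 1 peak, 131 (20.8%, 17.8 to 24.2) in at least 2, and 214 in none. Clusters of distal peaks alone numbered 402, of which 304 had at least 1 peak with a match and 114 at least 2. Clusters with both a promoter and a distal peak numbered 188, of which 101 had at least 1, and 39 clusters held promoter peaks alone. By size, none was found in 35.6% of pairs, 25.9% of clusters of 3 and 15.0% (3 of 20) of larger ones. In no cluster of 4 or more did every peak hold it. Such shares depend on how many peaks a cluster has, and the shares expected from that number were not computed. The order by size is thus no measure of match content per peak.

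Neighbouring distal peaks shared the match about as often as their separate shares give. Of 487 distal pairs, 118 (24.2%, 20.6 to 28.2) had RTAAAYA in both peaks, 236 in 1 and 133 in neither, and the product of the shares of left and right peaks is 23.4%. For the 348 distal pairs 10 to 20 kb apart, both peaks held it in 23.3% (19.1 to 28.0) against a product of 24.0%. By distance, the share with a match in both was 18.3% at 1 to 2 kb, 19.2% (13.4 to 26.8) at 2 to 4 kb, 37.0% (28.2 to 46.8) at 4 to 6 kb, 26.1% at 6 to 8 kb and 20.7% (13.51 to 30.4) at 8 to 10 kb. The 4 to 6 kb zone stood highest, where 56.0% of the peaks held a match and the product was 31.1%. Shared sequence was rare: in 11 of 735 pairs (1.497%, 0.84 to 2.66) both central windows held the same run of 25 bp, among them pairs at Vangl2, Meis2 and Pdgfra and 2 pairs at Btg1.

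There were 200 neighbouring pairs of a promoter and a distal peak, and in 186 both had the same nearest gene. The promoter peak had the more tags in 122 pairs (61.0%, 54.1 to 67.5), the distal peak in 75, and 3 were equal. The medians were 32 ChIP tags against 2 input tags at the promoter (quartiles of ChIP tags 23 to 49.2), and 26.5 against 1 at the distal peak (18.8 to 41). The distal partner lay in an intron in 117 pairs, in intergenic sequence in 68, in a coding exon in 8 and in an untranslated exon in 7. Of the 186 pairs at 1 gene, it lay downstream of the start in 109 (58.6%, 51.4 to 65.4).

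Promoter partners held the match less often than distal partners, as in the Hhip, Fgf18 and Gdf6 pairs and unlike the Vgll4 pair. The distal peak held RTAAAYA in 83 of 200 pairs (41.5%, 34.9 to 48.4) and the promoter peak in 26 (13.0%, 9.03 to 18.4). In 73 pairs the match was in the distal peak alone, in 16 in the promoter peak alone, in 10 in both and in 101 in neither. The median GC content was 71.2% at the promoter and 47.5% at the distal peak, and the part of base composition in the difference was not tested. Another 48 pairs joined 2 promoter peaks, 30 of them at 1 gene and 18 at different genes, and 36 of the 48 had the match in neither peak.

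**Figure D3:**
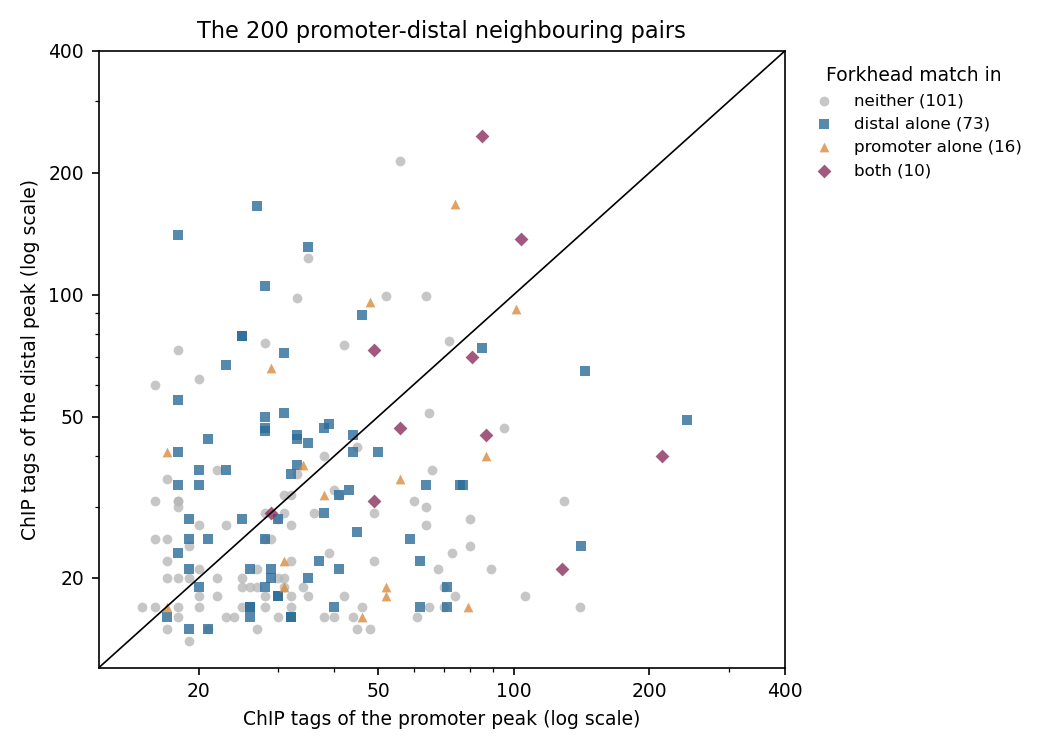
ChIP tags of the promoter peak (x, log scale) and of the distal peak (y, log scale) for 200 neighbouring pairs, with the diagonal of equal tags and the symbol showing which peak held RTAAAYA. Most points (122) lie under the diagonal, and the point with the most distal tags is Vgll4 (85 and 247).

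The 10 pairs named are those at 1 gene with the most tags in the distal peak. At Vgll4, the intronic peak 2.16 kb downstream of the start had 247 ChIP tags against 12 in the input (14.7-fold, exact 95% interval 8.29 to 28.9) and the promoter peak 85 against 4. At Bahcc1, a gene for a chromatin protein with a BAH domain, the peak 1.77 kb upstream had 214 against 14, next to 3 promoter peaks of 56, 38 and 34 tags, and none of the 4 held a central forkhead match. Meox2, a mesodermal homeobox gene, had 167 against 8 in an intron 8.64 kb downstream and 74 against 4 at the promoter. The promoter peak held a central match, and the intronic peak held none there but 2 over its whole 753 bp. Phf12, a gene for a PHD finger protein, had 166 against 6 in an intron with GTAAACA, while its promoter peak (27 against 1) had no match. Foxo3, itself a forkhead gene, had 137 against 9 upstream and 104 against 7 at the promoter, with a match in both. The other 5 pairs, at Sncaip, 2310047B19Rik, Kdm5b, Itgb5 and Cdo1, had 98 to 131 distal tags and 33 to 64 promoter tags. Of these 5, the distal peak at Sncaip held a central match, and the other 4 pairs had none in either peak. Over the whole peak, the distal peaks at Kdm5b and Itgb5 held 1 each.

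Each peak was assigned to the nearest protein-coding start if it lay within 100 kb. Without that limit, all peaks of a cluster had 1 nearest start in 585 clusters, a number that the closeness of members largely sets. Of 22232 protein-coding genes, 519 (2.33%) had a clustered peak and 442 (1.99%) had 2 or more peaks of 1 cluster. Only 4930558K02Rik had 3 clusters (8 peaks, 516 ChIP tags in all), and its strongest, of 38, 50, 88 and 190 tags, lay within the gene Dnm3. Bcor, a transcriptional corepressor, had 9 peaks in 2 clusters, and Frzb, a secreted Wnt antagonist, and Gm12830 had 7 each. Meis2, a TALE homeobox gene, Igf1r, a growth factor receptor gene, Zfp608 and Lmo4 had 5 each, and Ptch1, Tgfbr3, Twist1 and Lhx8 were among those with 4.

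Of the 13 gene lists, which were chosen with earlier results of these data known, palate regulators had the largest share of genes in clusters. Of 51 such genes, 15 (29.4%, 18.7 to 43.0) had 2 or more peaks of 1 cluster, against 1.99% of all genes, and 39 had any peak. Among genes with any peak, this was 38.5% of the list and 8.99% of all protein-coding genes. On that measure the skeletal muscle list (2 of 2) and the epithelium list (2 of 5) ranked higher, on few genes. The members named for the most tags were Meox2 (241 tags in 2 peaks), Meis2 (208 in 5), Lhx8 (204 in 4) and Twist1 (139 in 4). The 2 Lhx8 clusters lay upstream of this LIM homeobox gene, with 77 and 38 tags at about 35 kb (34.9 and 36.9 kb) and 73 and 16 tags at 55.1 and 56.6 kb. None of the 4 Lhx8 peaks or the 4 Twist1 peaks held a central forkhead match. Over their whole widths, the Lhx8 peaks held 1, 1, 3 and 1 matches and the Twist1 peaks 0, 1, 1 and 1.

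Osr2 and Twist1 had clusters that differed in the central match. Osr2, a zinc finger gene needed for palatal shelf growth, had 2 upstream peaks, of 18 ChIP tags against 1 input tag at 17.3 kb and 100 against 7 at 12.2 kb, both with a match. Twist1, a basic helix-loop-helix gene of cranial mesenchyme, had a promoter peak of 66 tags against 4, a peak of 37 at 5.94 kb, and a second cluster of 21 and 15 tags at 19.7 and 22.3 kb downstream. Foxf2, Foxf1a, Pax9, Msx1 and Tgfb2 had 1 to 3 assigned peaks each and no clustered peak.

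Among signalling genes, members of the hedgehog list with a cluster were 2 of 22, the receptor Ptch1 and the ligand-binding Hhip. Ptch1 had the intronic pair shown above, of 67 ChIP tags against 4 and 148 against 9 (11.8-fold, exact interval 6.04 to 26.3). Its second cluster was a promoter peak of 129 against 9 and an intronic peak of 31 against 2, with no central match in either. The promoter peak held 2 matches over its whole 1696 bp. FGF genes in clusters were 3 of 28: Spry4, a feedback inhibitor (84, 36 and 41 tags, each with a match), the membrane protein gene Flrt3 (42 and 44 tags) and the ligand Fgf18 (30 and 18 tags). The shares of the hedgehog and FGF lists were 9.09% and 10.7%, against 1.99% of all genes. Among genes with any peak they were 11.8% and 17.6%, against 8.99% of all genes with any peak, so the hedgehog share was near the background there.

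TGF-beta and BMP genes in clusters were 4 of 41 (9.76%), against 1.99% of all genes. Counting only genes with any peak, the shares were 17.4% and 8.99%. The 4 genes were Tgfbr3, the inhibitory Smad gene Smad7, and the ligands Gdf6 and Bmp5. The second Tgfbr3 cluster, in another intron, had 63 ChIP tags against 4 and 102 against 7. The stronger peak of the Tgfbr3 pair printed above had 181 against 9, a 14.4-fold excess (7.42 to 32.0). Smad7 had 39 tags at the promoter and 48 in an intron 7.36 kb downstream, and Bmp5 had 20 and 19 tags in an intron.

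The share of genes with any peak that were in clusters was 22.2% for the Wnt list and 8.99% for all genes. Wnt genes in clusters were 8 of 50 (16%, 8.34 to 28.5), against 1.99% of all genes. Frzb had the most tags of these (424 over 7 peaks), in a cluster of 103, 30, 42 and 85 ChIP tags 34.8 to 42.8 kb downstream of the start and one of 73 tags in an intron 10.2 kb downstream and 49 and 42 tags at its promoter. Each peak of the second Frzb cluster held a match, as did the outer peaks, of 103 and 85 tags, of the first. Rspo3, which strengthens Wnt signals, had a cluster across its start, of 19 tags 3.68 kb downstream and 47 tags 2.63 kb upstream, and one of 55 and 182 tags 93.6 and 100.1 kb upstream, of which the peak of 182 tags lies past the assignment limit and is not counted for Rspo3. The planar polarity gene Prickle1 had 16 and 88 tags, and the receptor gene Fzd1 had 67 ChIP tags against 0 in the input and 33 against 2, in introns of Cdk14. The other 4 members, Vangl2, Sfrp2, Lgr4 and Fzd4, had 37 to 87 tags each in clusters.

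Extracellular matrix genes in clusters were 6 of 53 (11.3%), against 1.99% of all genes. Counting only genes with any peak, the shares were 17.6% and 8.99%. Itgb5, an integrin subunit, had 52, 99 and 18 ChIP tags, Postn, a matrix protein of mesenchyme, 111 and 37, the laminin gene Lamb1 43 and 54, and the cartilage collagen gene Col2a1 31, 37 and 20. The Postn peak of 111 tags held no forkhead match in the central 200 bp but 11 over its whole 953 bp, so a match outside the central window is missed in wide regions. Forkhead genes in clusters were 4 of 30 (13.3%), against 1.99% of all genes, and of genes with any peak 22.2% against 8.99%. They were Foxo3, Foxc2 (20, 190 and 19 tags, with no central match), Foxo1 (71 and 19) and Foxc1 (30 and 29). The Foxc2 peak of 190 tags lay in an intron of Gm20388, 11.1 kb downstream of the Foxc2 start. It held 4 matches over its whole 1364 bp.

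Lists of other cell types also held genes in clusters, at 5% to 10% of 4 lists and 0 of 2, against 1.99% of all genes. Osteogenic genes in clusters were 2 of 20, among them Spp1 (26 and 17 ChIP tags). Epithelial genes were 2 of 25, Krt8 (19 and 35 tags) and Jup (17 and 25 tags). Skeletal muscle genes were 2 of 20, Chrna1 (69 and 54 tags, each with a match) and Myog (17 and 17), and of endothelial genes Cdh5 alone, 1 of 20 (23 and 27 tags). None of 20 neural and none of 20 blood and macrophage genes had a clustered peak, against 2.33% of all genes. The Wilson upper limit of each is 16.1%, so these 2 lists were not told apart from all genes. Only 6 neural and 3 blood and macrophage genes had any peak.

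**Figure D4:**
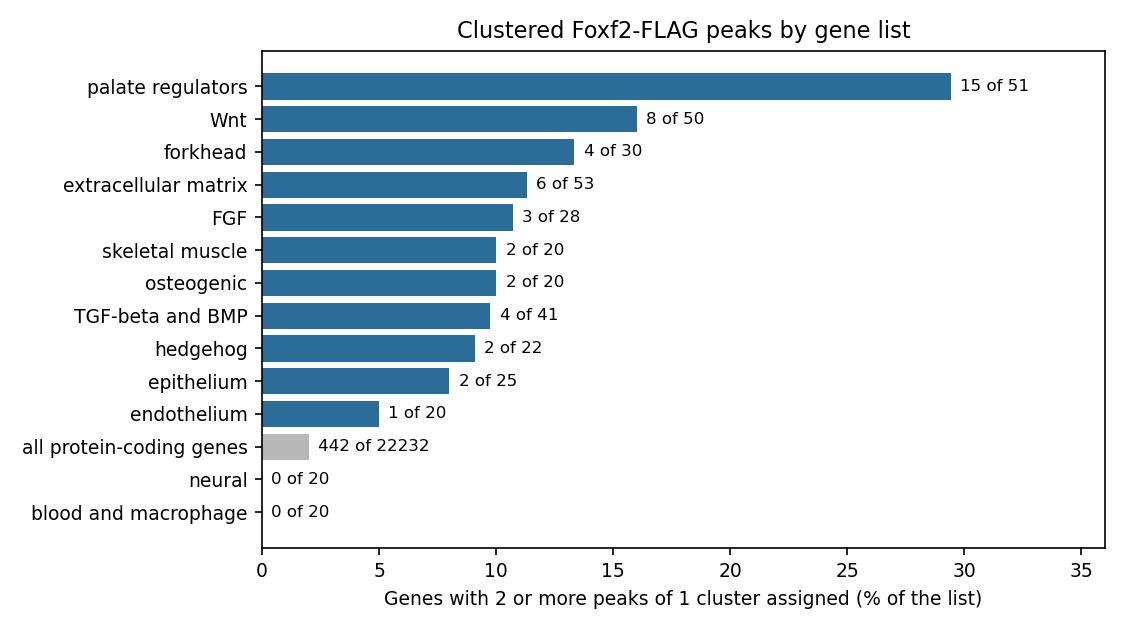
Genes with 2 or more peaks of 1 cluster assigned, as a percent of each gene list, with the number of genes beside each bar and all protein-coding genes in grey. Palate regulators stand at 29.4% and Wnt genes at 16%, against 1.99% of all protein-coding genes. The lists were chosen with earlier results of these data known.

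The largest clusters were of several kinds. The cluster of 7 peaks lay over 30.1 kb in introns of Tcf4, which encodes a basic helix-loop-helix E-protein and partner of Twist1, from 62.4 to 92.1 kb downstream of a start. Its ChIP tags were 36, 17, 49, 18, 30, 46 and 23, against 1 or 2 input tags each, and 3 of the peaks held a match. The Bcor cluster of 6 spanned 18.8 kb, with 55, 17, 17, 46, 89 and 18 tags, of which the 46 were at a promoter. The peak of 89 tags, 5.05 kb from that start, held the only match in the central 200 bp. The peak of 55 tags held 2 over its whole 774 bp. The 3 clusters of 5 were those at Exoc2 and Gm5447 (42, 75, 29, 60 and 28 tags), at the nuclear factor I gene Nfib (25, 28, 29, 26 and 21 tags) and 22.6 to 41.3 kb upstream of Gm12830 (36, 17, 19, 21 and 15 tags). Strength was thus spread evenly at Nfib, and no peak there reached the median of clustered peaks.

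The 10 clusters with the most peaks were filled up with clusters of 4 peaks, for which ties were broken by summed tags. The 5 clusters shared with the 10 of the most tags were all of 4 peaks, so the overlap is set by that rule. They included the first and the second by tags. The first, in introns of the DNA repair gene Rad51l1 and 110 to 128 kb from its start, held 177, 85, 49 and 235 ChIP tags, with 11, 5, 3 and 9 in the input. Its strongest peak (18.7-fold, 9.69 to 41.4) had no match in the central 200 bp and 2 over its 1220 bp. The second held 121, 139, 176 and 61 tags in intergenic sequence nearest to 0610007P08Rik and Hsd17b3. A further cluster nearest to 0610007P08Rik, of 23, 60, 301 and 17 tags, ended 59.2 kb before it. The Hes1 pair held 309 against 20 input tags (11.1-fold, 7.04 to 18.4) and 97 against 6, at 31.3 and 37.9 kb downstream of the start. The 3 peaks nearest to Zfp608, over 270 kb from it (269.6 to 275.4 kb), held 137, 14 and 241 tags, and the pair nearest to Gm10320 held 192 and 191.

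**Figure D5:**
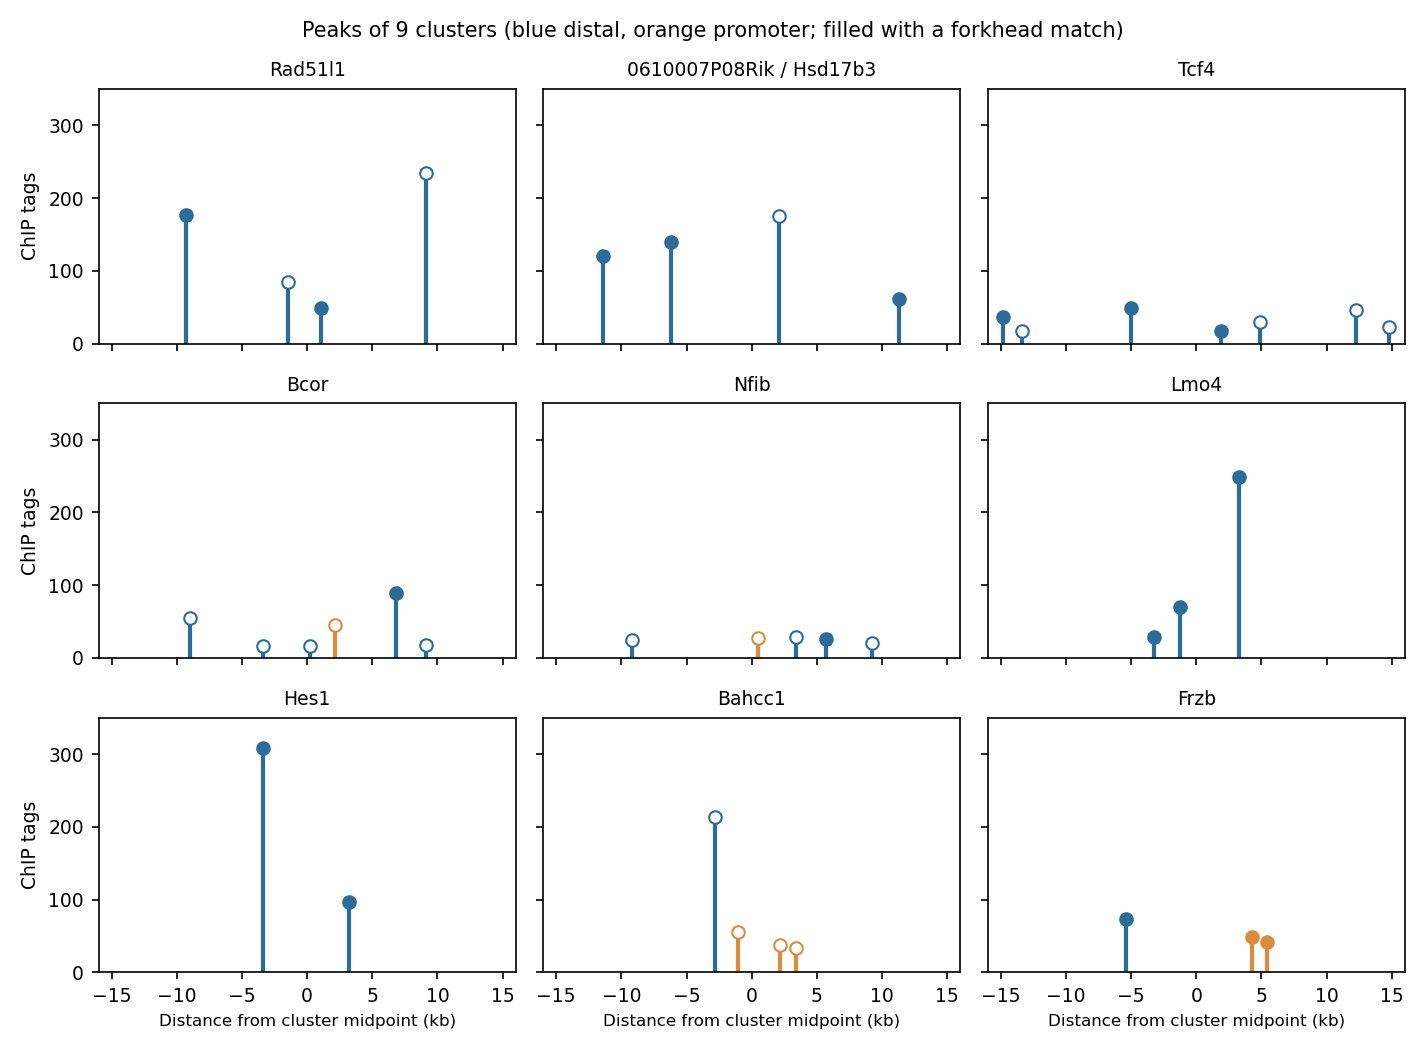
ChIP tags of each peak (y) by distance from the midpoint of its cluster (x, kb) in 9 clusters; distal peaks are blue, promoter peaks orange, and filled symbols held RTAAAYA in the central 200 bp. The Tcf4 and Nfib clusters hold many peaks of under 50 tags, the Lmo4 and Hes1 clusters few peaks with up to 249 and 309 tags, each with a match.

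Depth limits these values. Of the clustered peaks, 380 (27.9%, 25.5 to 30.3) had at most 20 ChIP tags, and the input tags behind the median peak were 2, so a fold with 1 input tag has a wide interval, as for the Tcf4 peak of 36 tags (25.8-fold, 4.34 to 1046). With 1 library of each kind, the presence of a weak neighbour has no replicate check.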

How the data were processed

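Per the labels, 1 anti-FLAG ChIP library and 1 input library of E13.5 palatal shelves were sequenced. Reads were aligned to mm9, and Bowtie 1.0.0, SAMtools 0.1.19 and HOMER are named, per the submitters' processing notes. Per the file headers, regions were called by HOMER findPeaks in its histone style against input, with a fold of 10 or more and at most 1 tag per position. The deposited signal is the ChIP tags scaled to 10000000. Scaled back with the library total, these values came out whole to within 0.134 tags (limit 0.15). Input tags, fold (a ratio), score and p-value are the authors' deposited columns; the p-value and the clonal ratio entered no result. Other deposited columns used were position and width. Where the deposited input column holds the caller's placeholder below 1, input is given as 0. A file of the input library's own signal was not used here.

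Centres were chained at 10 kb, annotated with NCBIM37 and GENCODE vM1, and searched for 21 patterns in the central 200 bp with Python 3.11.15 and pysam 0.24.0. The steps were tested on simulated data. Shares carry Wilson 95% intervals and single folds an exact conditional interval. No test was run across peaks. Genes were assigned from 13 lists (400 of 402 entries matched).

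The clusters named were the 10 with the most peaks (ties broken by summed ChIP tags) and the 10 with the most tags. Also named were the 10 same-gene promoter-to-distal pairs with the most distal tags, up to 4 genes per list, the 3 closest pairs and 3 either side of the limit. Always named were Foxf2, Foxf1, Ptch1, Osr2, Pax9, Msx1, Tgfb2, Fgf18, Twist1, Bcor, Frzb, Tgfbr3 and Tcf4. Any other gene printed was picked with its values in view, and 1 gene that the rule names is not reported here. Members and lists were chosen with earlier results of these data known.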

Additional observations from a re-analysis of the deposited data

How the results depend on the processing

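Of 68 values recomputed under alternative settings, 34 stayed near the value reported. With 5 kb and 20 kb in place of 10 kb there were 795 and 2236 clustered peaks, 378 and 984 clusters, 8.20% and 19.4% of clusters with 3 or more peaks, 121 and 302 with a promoter and a distal peak, and 69 and 220 pairs with a forkhead match in both peaks. Clusters with a match in 2 or more peaks were 17.7% with 5 kb. With only peaks of the median score (25) or more these values were 436 clustered peaks, 205 clusters, 62 promoter-and-distal clusters, 65 pairs with both and 31.7% of clusters with 2 or more. The difference of median tags was then 5, and 52.5% of clustered and 59.9% of clustered distal peaks held the match. Promoters within 2 kb, within 500 bp and of all annotated genes held 26.2%, 15.2% and 23.5% of clustered peaks. Searching the central 400 bp, the whole peak and GTAAACA alone gave 59.0%, 65.9% and 14.3% of clustered peaks, 68.7%, 75.7% and 16.2% of distal ones, 40.2%, 49.4% and 2.54% of clusters with 2 or more, and 267, 332 and 16 pairs with both. The share of clustered minus that of single distal peaks with the match was -4.63 percentage points as reported and ranged from -6.12 (5 kb) to -2.96 (whole peak) over the settings compared; the 2 intervals overlapped for GTAAACA alone, the whole peak, starts of all annotated genes and scores of 25 or more. No paired analysis was possible because there was 1 library of each kind.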
